A study of Homo sapiens with 4 samples.

Results

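KLF17, KLF4, KLF5, TFCP2L1, TFAP2C, ESRRB and DPPA3 are genes of the naive pluripotent state, and their CpG methylation was read in naive and primed human embryonic stem cells. The members were the cytosines with at least 5 reads in all 4 libraries that lay in the 7 gene spans or within 5 kb of them, which gave 205 of 907719 such cytosines in the whole data. ESRRB held 89 of them, TFCP2L1 56, KLF5 18, DPPA3 17, TFAP2C 11, KLF17 9 and KLF4 5. Captured genomic DNA of the human embryonic stem cell line H9 was bisulfite sequenced. The 4 groups were naive wild-type (WT) cells grown in 5iLAF, primed WT cells grown in basal medium, naive B3GALT5-/- (KO) cells grown in 2iLAF, and primed KO cells grown in basal medium. B3GALT5 adds galactose during the synthesis of glycosphingolipids, and 5iLAF is a medium of kinase inhibitors with LIF, activin A and FGF2 that converts primed cells to the naive state. How many knockout clones were used is not given in the sources used here, and DNA methylation cannot check the knockout itself. Each group held 1 library, so no difference had a replicate check, and in the naive state genotype and medium differ together and cannot be told apart.

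Primed human embryonic stem cells resemble the epiblast after implantation, and naive cells resemble it before implantation, when the genome carries little DNA methylation. KLF17, KLF4 and KLF5 are zinc-finger transcription factors of the Krüppel-like family. KLF17 marks human naive cells, KLF4 is a reprogramming factor, and KLF5 acts in the early embryo. TFCP2L1 is a transcription factor of the CP2 family that in mouse holds embryonic stem cells in self-renewal. TFAP2C (AP-2 gamma) is a transcription factor needed for the human naive state, and ESRRB is an orphan nuclear receptor of the mouse naive network. DPPA3 (Stella) is a marker of the naive state, and in mouse it limits maintenance methylation through UHRF1. Methylation of CpG at a gene start is commonly low where the gene is active, but no expression was measured here.

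Start sequences are shown for the 3 genes whose start regions held the measured CpGs discussed below, and for an internal start of ESRRB. They are RefSeq sequences of the GRCh38.p14 build, from 250 bases before to 50 bases after a transcript start, on the plus strand as all 4 genes are, with each CpG in capitals. The methylation files use hg19, so the sequences were laid on the measured cytosines by the spacing of their CpGs and not by coordinates. All 6 CpGs of DPPA3, 18 of 18 of KLF17, 3 of 4 of the upstream start of KLF5 and 4 of 4 of the internal ESRRB start coincided with measured CpGs, against at most 2, 4, 2 and 3 at the next-best offset. The ranges are chr12:7711183-7711482 for DPPA3, chr1:44118571-44118870 for KLF17, chr13:73054726-73055025 for KLF5 and chr14:76371021-76371320 for ESRRB.
DPPA3: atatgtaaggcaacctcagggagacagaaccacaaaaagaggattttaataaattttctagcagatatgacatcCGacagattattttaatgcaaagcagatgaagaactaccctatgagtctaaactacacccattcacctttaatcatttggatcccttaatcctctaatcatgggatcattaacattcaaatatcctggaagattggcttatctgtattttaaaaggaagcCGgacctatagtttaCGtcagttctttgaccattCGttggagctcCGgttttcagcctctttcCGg
KLF17: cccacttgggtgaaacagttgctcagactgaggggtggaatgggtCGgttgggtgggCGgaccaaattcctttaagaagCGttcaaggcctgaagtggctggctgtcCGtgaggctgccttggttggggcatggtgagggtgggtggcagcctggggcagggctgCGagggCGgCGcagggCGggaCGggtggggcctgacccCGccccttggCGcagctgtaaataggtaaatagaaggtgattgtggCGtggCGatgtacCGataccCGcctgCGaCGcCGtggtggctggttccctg
KLF5: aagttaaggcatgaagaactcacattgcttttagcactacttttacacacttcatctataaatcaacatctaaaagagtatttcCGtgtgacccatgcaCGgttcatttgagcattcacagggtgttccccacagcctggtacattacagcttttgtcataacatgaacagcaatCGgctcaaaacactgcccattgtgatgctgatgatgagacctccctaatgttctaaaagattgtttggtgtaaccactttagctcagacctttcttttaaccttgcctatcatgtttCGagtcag
ESRRB: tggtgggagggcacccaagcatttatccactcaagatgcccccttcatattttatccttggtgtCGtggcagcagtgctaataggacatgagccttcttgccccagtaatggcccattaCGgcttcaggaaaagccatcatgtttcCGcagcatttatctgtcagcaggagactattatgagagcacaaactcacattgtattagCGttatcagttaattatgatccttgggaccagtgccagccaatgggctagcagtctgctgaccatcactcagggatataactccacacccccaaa
The motif searched was CG, which reads the same on both strands. It was held by 96.1% of 34961 RefSeq promoters of this length, with a median of 14 per promoter (quartiles 4 and 28). DPPA3, KLF5 and ESRRB have few CpGs in these windows, while the start of KLF4 holds 33, that of TFCP2L1 43 and the second start of KLF5 37. Those CpG-rich starts could not be laid on the measured cytosines, and TFAP2C is named only.

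The libraries summed 23916547 reads (WT naive), 24570785 (WT primed), 40697882 (KO naive) and 28450230 (KO primed) over all CpG cytosines they list, with medians per cytosine of 8, 7, 13 and 8 reads. At the member cytosines the means were 14.8, 13.6, 23.8 and 15.4 reads, libraries ordered likewise. The tables hold no cytosine without a methylated read, so an unlisted cytosine was either not covered or not methylated, and the levels leave out sites with no methylation seen. Of the member cytosines 181 lay on the minus and 24 on the plus strand. SDs are over cytosines of 1 library, which share reads and are not replicates, and confidence intervals cover counting error only.

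In WT cells the 7 genes together were less methylated in the naive library. The mean level was 54.5% ± 26.1 in WT naive and 80.8% ± 23.5 in WT primed cells (SD, 205 cytosines), a difference of -26.2 percentage points. The read-pooled difference was -24.4 points (95% Newcombe interval -26.8 to -22.1). Over the whole data the levels were 57.7% and 80.2%, a difference of -22.5 points, so the 7 genes lay a few points beyond a drop that was genome-wide. The level was lower in WT naive cells at 161 of the 205 cytosines (78.5%), higher at 34 (16.6%) and equal at 10. Over the whole data 76.8% were lower and 17.3% higher, so the members stood near these shares. A cytosine was called where it differed by 25 points or more and Fisher's exact test (two-sided, on its reads) gave a Benjamini-Hochberg adjusted p under 0.05 over all 907719 cytosines. By this rule 33 members (16.1%) were called lower. The share over all cytosines was 16.2%, so the count of the members stood at the background. The single member called higher (0.488%, background 0.442%) lay in the body of ESRRB at 14:76841887, named after its value was seen, with 11 of 11 reads methylated in WT naive and 8 of 18 in WT primed cells. It was at 48.4% in KO naive and 42.1% in KO primed cells.

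The KO cells showed a drop of the same order. The mean level was 55.1% ± 22.6 in KO naive and 82.2% ± 25.2 in KO primed cells, a difference of -27.1 points (read-pooled -25.7, interval -27.6 to -23.6), against -22.3 points over the whole data. The level was lower at 172 of the 205 cytosines (83.9%, against 84.0% over the whole data). The same Fisher's exact test called 47 members lower (22.9%, background 18.2%) and none higher (background 0.242%). At an unadjusted p under 0.05, 74 were lower and 2 higher, against 287552 and 7116 of 907719 over the whole data. KO naive was the deepest library. When read numbers were scaled down by the excess variance seen between paired strands of CpGs (ratios of 2.29 to 3.37), no member was called in either genotype. Over the whole data this left 1891 of 907719 cytosines called lower in the WT pair and 3026 in the KO pair. Calls were thus rare throughout, and the lack of calls among 205 members does not set them apart. Over the genotypes taken as 2 pairs, naive minus primed averaged -26.7 ± 0.589 points (SD) for the 7 genes and -22.4 ± 0.117 for the whole data. The exact two-sided permutation test gave p = 0.5 for each, the smallest it can give with 2 pairs.

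The genes differed among themselves in how far the naive level lay below the primed level. Naive minus primed over the 2 pairs averaged -52.97 ± 2.17 points for DPPA3, -42.2 ± 7.02 for KLF4, -31.6 ± 6.35 for KLF5 and -30.2 ± 0.647 for KLF17 (SD). It averaged -27.2 ± 2.02 for ESRRB, -19.2 ± 5.45 for TFCP2L1 and -1.59 ± 10.6 for TFAP2C. KLF5 and KLF17 differed by less than the SD of KLF5, and TFAP2C was the single gene whose pairs had opposite signs. In WT naive cells the levels ran from 69.1% in TFCP2L1 through 57.1% in ESRRB, 55.1% in KLF17, 41.5% in KLF4, 40.2% in TFAP2C and 37.1% in DPPA3 to 24.9% in KLF5, and no neighbours in that order differed by more than the SD of both. In WT primed cells DPPA3 stood highest at 91.6% and TFAP2C lowest at 34.3%, over the cytosines read in all 4 libraries. A drop in points cannot pass the primed level, so the order by points does not compare the genes from a common starting level. Each gene was read at its own set of cytosines, mostly outside the CpG-rich starts, and the place of KLF4 rests on 5 of them. With unlisted cytosines filled in at 0, KLF4 differed by -10.5 points in WT and by -14.7 points in KO cells over 16 cytosines, against -37.2 and -47.1 points without filling in. At 10 reads or more, TFCP2L1 differed by -5.49 points in WT cells over 33 cytosines, against -15.4 points at 5 reads or more, and KLF17 by -8.33 points in KO cells at a single cytosine, against -29.8 points.

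**Figure D1:**
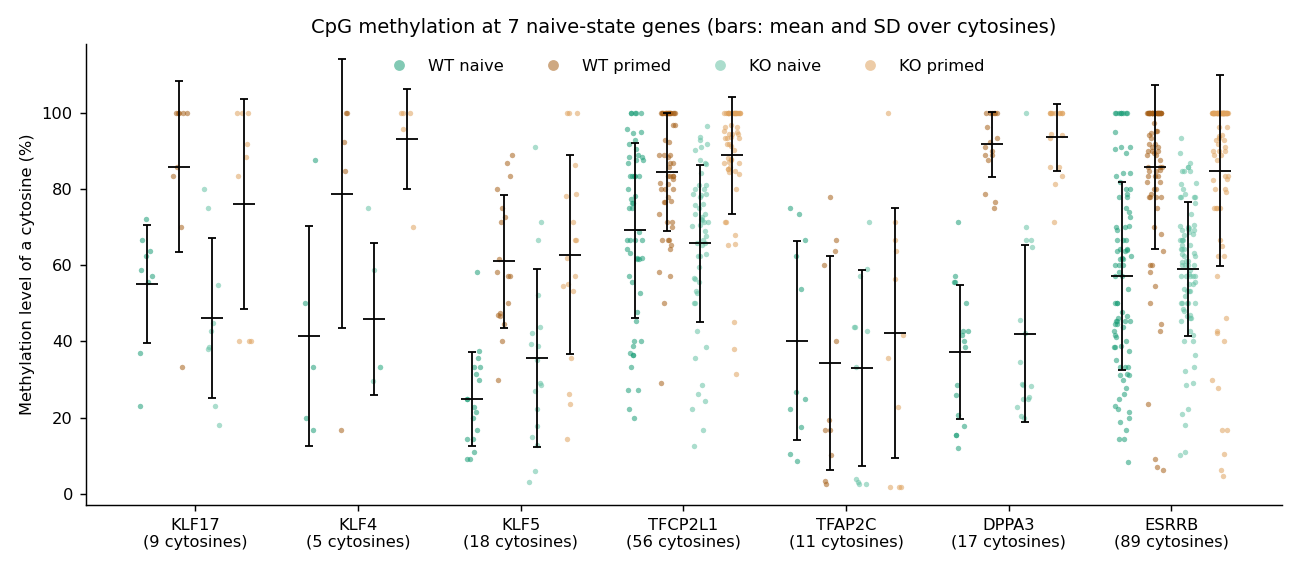
CpG methylation level (%) of each member cytosine (points) by gene and library, with the mean and SD over cytosines (bars, which can pass 100). The naive libraries lie below the primed ones in 6 genes, from 37.1% against 91.6% in WT cells at DPPA3 to 69.1% against 84.4% at TFCP2L1, while TFAP2C spans low and high levels in all 4 libraries.

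DPPA3, the naive-state marker, showed the lowest naive levels relative to primed among the 7 genes. Its 17 cytosines averaged 37.1% ± 17.6 in WT naive and 91.6% ± 8.50 in WT primed cells, and 42.1% ± 23.3 in KO naive and 93.5% ± 8.82 in KO primed cells (SD). The read-pooled differences were -61.7 points (interval -67.8 to -54.3) in WT and -60.5 points (-65.2 to -54.6) in KO cells. In each genotype 9 of the 17 cytosines were called lower (52.9%, against the backgrounds of 16.2% and 18.2%). Levels were lower at all 17 cytosines in the WT pair and at 16 in the KO pair (76.8% and 84.0% over the whole data).

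The block at the start of DPPA3, 12:7863854-7864166 in hg19, was low in both naive libraries. A block here is a run of member cytosines with gaps of at most 500 bp. Its 9 cytosines averaged 28.6% ± 17.2 in WT naive and 88.2% ± 9.58 in WT primed cells, and 28.2% ± 6.95 in KO naive and 91.1% ± 9.85 in KO primed cells. All 9 were lower in both pairs. Of all 50236 blocks of at least 5 cytosines in the data, 2.71% had a WT difference as low and 1.38% a KO difference as low.

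At the 6 CpGs of the DPPA3 sequence printed above, the naive levels lay below the primed levels without overlap in each genotype, as did 19.4% of all runs of 6 adjacent cytosines with gaps of at most 500 bp in the WT pair and 24.6% in the KO pair. Their levels ran from 12% to 25.9% (mean 17.9%) in WT naive, from 75% to 100% (91.4%) in WT primed, from 20% to 34.6% (26.3%) in KO naive and from 81.2% to 100% (93.9%) in KO primed cells. The CpG at base 269 of the sequence, 12:7864048, had 4 of 26 reads methylated in WT naive and 13 of 13 in WT primed cells, and 9 of 45 in KO naive and 17 of 17 in KO primed cells. Its adjusted p was 2.38e-05 in WT and 5.62e-07 in KO cells by Fisher's exact test. The CpGs at bases 280 and 298, 12:7864059 and 12:7864077, were called in both genotypes too, with adjusted p from 4.63e-07 to 0.000375. A second block in the gene body, 12:7868009-7868061, with 6 cytosines, was at 48.8% in WT naive and 94.6% in WT primed cells, and at 65.5% in KO naive and 94.8% in KO primed cells.

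KLF17, the human naive marker of the Krüppel-like family, was less methylated across its start in WT naive cells. The 6 cytosines of its start block, 1:44584289-44584457, averaged 57.1% ± 11.5 in WT naive and 95% ± 12.2 in WT primed cells, and 51.9% ± 23.2 in KO naive and 75.8% ± 28.4 in KO primed cells (SD). All 6 were lower in the WT pair and 4 of 6 in the KO pair. The block therefore passed the rule of size, a mean difference of at least 25 points with at least 80% of cytosines moving that way, in WT (-37.9 points) but not in KO cells (-23.9 points), and whether the pairs differ was not tested.

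All 18 CpGs of the KLF17 sequence were read at 5 or more reads in WT naive, WT primed and KO naive cells. Their levels ran from 36.8% to 80% (mean 59.3%) in WT naive, against 70% to 100% (98.3%) in WT primed cells, where all but the CpG at base 80 were at 100%. They ran from 18.2% to 80% (46.7%) in KO naive cells. Every one of the 18 was lower in WT naive than in WT primed cells. In KO primed cells 6 of the 18 had 5 or more reads, at 40% to 100% (75.8%), and the others had 2 to 4 reads, so the KO comparison rests on few reads. None of the 9 KLF17 cytosines was called in WT cells (background 16.2%), and 2 were called lower in KO cells (22.2%, background 18.2%). In WT cells 3 were lower at an unadjusted p under 0.05, as were 261596 of 907719 over the whole data. The start-block cytosine 1:44584301 had 2 of 11 reads methylated in KO naive and 9 of 9 in KO primed cells (adjusted p = 0.00452, Fisher's exact test), and 10 of 18 in WT naive and 9 of 9 in WT primed cells (adjusted p = 0.106).

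**Figure D2:**
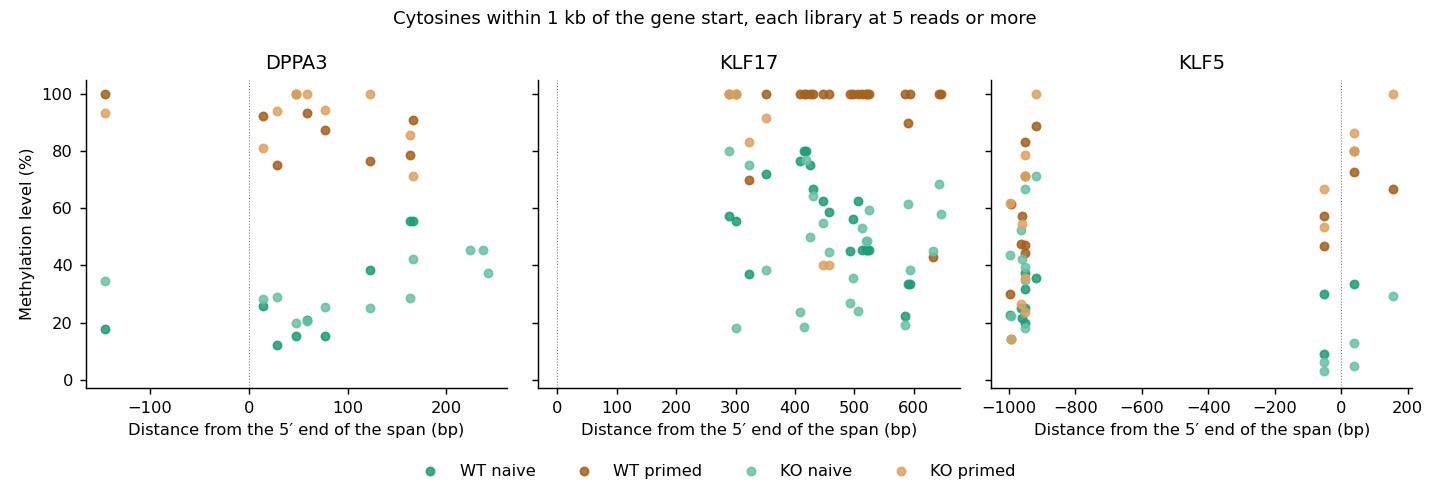
Methylation level (%) of cytosines within 1 kb of the 5′ end of the DPPA3, KLF17 and KLF5 spans, against the distance from that end in bp, with each library shown where it had at least 5 reads. At DPPA3 the naive libraries lie below the primed ones at every position where both were read, at KLF17 most WT primed points sit at 100%, and at KLF5 the libraries separate near the start and mix about 1 kb before it.

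KLF5 was little methylated in WT naive cells. Its 18 cytosines averaged 24.9% ± 12.4 in WT naive and 60.99% ± 17.4 in WT primed cells, and 35.7% ± 23.3 in KO naive and 62.8% ± 26.02 in KO primed cells. All 18 were lower in the WT pair and 16 in the KO pair (76.8% and 84.0% over the whole data). Fisher's exact test called 2 lower in WT cells (11.1%, background 16.2%) and 6 in KO cells (33.3%, background 18.2%). At 13:73632552-73633458 in the gene body, 17 cytosines were listed in some library. Of these, 0 were listed in WT naive, 3 in WT primed, 10 in KO naive and 6 in KO primed cells. Those with at least 5 reads averaged 11.6% in WT primed, 6.27% in KO naive and 14.8% in KO primed cells. This weakly methylated stretch did not enter the averages above.

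Within KLF5, the upstream start printed above and the flank before it differed in KO naive cells. At the CpGs of the printed KLF5 sequence the levels were 9.09% to 33.3% in WT naive (3 cytosines) and 46.7% to 80% in WT primed cells (5), and 3.03% to 29.4% in KO naive and 53.3% to 100% in KO primed cells (5 each). The naive levels lay below the primed levels without overlap in each genotype. Of all runs of 3 adjacent cytosines, the number read there in all 4 libraries, 40.3% did so in the WT pair and 48.4% in the KO pair. The KO pair was read here at 5 cytosines, and in it 37.8% of runs of 4 and 24.6% of runs of 6 did so. Such a separation was thus common in the data. The block about 1 kb before the start, 13:73627918-73628083 with 11 cytosines, averaged 23.3% ± 8.996 in WT naive and 57.2% ± 18.2 in WT primed cells, but 41.7% ± 16.7 in KO naive and 53.5% ± 26.2 in KO primed cells. It passed the rule of size in WT (-33.9 points) and not in KO cells (-11.7 points). The start cytosine 13:73629040 had 6 of 47 reads methylated in KO naive and 19 of 22 in KO primed cells (adjusted p = 5.45e-07, Fisher's exact test), and 4 of 12 in WT naive and 16 of 22 in WT primed cells (adjusted p = 0.132). In the gene body, 13:73636643 was called in both genotypes, at 16.7% in WT naive and 86.7% in WT primed cells (adjusted p = 0.000848), and at 26.9% in KO naive and 100% in KO primed cells (adjusted p = 9.02e-05, Fisher's exact tests).

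KLF4, the reprogramming factor, had 5 member cytosines and none within 1 kb of its start or in its body. Over these 5 the mean was 41.5% ± 28.9 in WT naive and 78.7% ± 35.3 in WT primed cells, and 45.98% ± 19.9 in KO naive and 93.1% ± 13.1 in KO primed cells. The 3 cytosines downstream of the gene, about 10 kb after the 5′ end, were at 16.7% to 33.3% in WT naive and 84.6% to 100% in WT primed cells, and at 33.3% to 75% in KO naive and 100% in KO primed cells. The 2 cytosines before the start were at 50% and 87.5% in WT naive and 16.7% and 100% in WT primed cells, so the WT drop was seen in the downstream group. They were at 29.6% and 58.6% in KO naive and 70% and 95.7% in KO primed cells, and both were called lower there. Around the CpG-rich start and body of KLF4, 66 cytosines were listed in some library, 26 of them in WT naive, 16 in WT primed, 15 in KO naive and 25 in KO primed cells, at mean levels of 11.2%, 14.6%, 7.58% and 15.2%.

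Over its member cytosines, TFCP2L1, the CP2-family factor, was the most methylated of the 7 genes in both naive libraries. Its 56 cytosines averaged 69.1% ± 22.96 in WT naive and 84.4% ± 15.5 in WT primed cells, and 65.7% ± 20.6 in KO naive and 88.8% ± 15.3 in KO primed cells. Of the 56 cytosines, 53 lay in the gene body and 3 upstream, and none lay within 1 kb of the start. Near the start, 13 cytosines at 2:122041742-122042237 were listed in some library. Those with at least 5 reads averaged 19.4% in WT naive, 23.5% in WT primed, 9.89% in KO naive and 29.0% in KO primed cells. Of the 56 members, Fisher's exact test called 2 lower in WT cells (3.57%, background 16.2%) and 11 in KO cells (19.6%, background 18.2%). In KO cells 7 of the 11 lay in 1 block of 28 cytosines, 2:121983371-121983767, where 24 of the 28 CpGs had another CpG exactly 41 bp away. How uniquely the reads of such evenly spaced CpGs were placed was not tested. The block averaged 70.2% in WT naive and 82.8% in WT primed cells, and 69.5% in KO naive and 89.8% in KO primed cells.

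The other blocks of TFCP2L1 did not move alike. The block in the gene body at 2:122015264-122015425, with 5 cytosines, was at 45.3% ± 11.3 in WT naive and 88.95% ± 15.1 in WT primed cells, and at 31.2% ± 15.2 in KO naive cells, while all its reads were methylated in KO primed cells (100%). Among blocks of at least 5 cytosines it was the lowest of the 7 genes in the KO pair (-68.8 points), and 0.693% of all such blocks were as low. The block at 2:122002278-122002418 was at 73.9% in WT naive and 93.9% in WT primed cells, but at 86.9% in KO naive and 77.1% in KO primed cells. The block at 2:121980399-121980541 was at 82.4% in WT naive and 70.2% in WT primed cells, but at 49.3% in KO naive and 77.4% in KO primed cells. These last 2 blocks, with 6 cytosines each, had opposite signs in the genotypes.

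TFAP2C, the AP-2 factor, was the single gene whose mean had no common direction in the genotypes. Its 11 cytosines averaged 40.2% ± 26.1 in WT naive and 34.3% ± 28.1 in WT primed cells, and 33.1% ± 25.8 in KO naive and 42.2% ± 32.8 in KO primed cells. The 4 cytosines upstream of the gene were at 8.70% to 22.2% in WT naive and 2.5% to 19.4% in WT primed cells, and at 2.70% to 3.85% in KO naive and 1.85% to 22.7% in KO primed cells. The body block at 20:55210110-55210215, with 5 cytosines, was at 50.8% ± 24.2 in WT naive and 42.9% ± 27.5 in WT primed cells, and at 47.02% ± 14.3 in KO naive and 54.3% ± 15.4 in KO primed cells. The differences of this block were smaller than its SDs. The 4 upstream cytosines were already low in the primed libraries, so a lower naive level could hardly be seen there. The 7 cytosines in the gene body averaged 54.7% in WT naive and 48.8% in WT primed cells. In KO cells they averaged 50.2% in the naive and 62.2% in the primed library. None of the 11 was called in WT cells (background 16.2% lower and 0.442% higher). At an unadjusted p under 0.05, 1 was lower and 1 higher, against 261596 and 12202 of 907719 over the whole data. The one called in KO cells, 20:55212700, had 13 of 22 reads methylated in KO naive and 15 of 15 in KO primed cells (adjusted p = 0.0323, Fisher's exact test).

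ESRRB, the nuclear receptor, followed the whole data more closely than DPPA3 or KLF4. Its 89 cytosines averaged 57.1% ± 24.7 in WT naive and 85.7% ± 21.4 in WT primed cells, and 59.02% ± 17.6 in KO naive and 84.8% ± 25.1 in KO primed cells. Fisher's exact test called 18 lower in WT cells (20.2%, background 16.2%) and 16 in KO cells (17.98%, background 18.2%). A single member cytosine lay within 1 kb of the 5′ end, at 57.1% in WT naive and 42.9% in WT primed cells, and at 66.7% in KO naive and 40% in KO primed cells.

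Along the body of ESRRB the largest block, 14:76905669-76906098 with 28 cytosines, was at 56.5% ± 21.3 in WT naive and 92.8% ± 9.93 in WT primed cells, and at 58.2% ± 17.6 in KO naive and 98.8% ± 3.39 in KO primed cells. Of its cytosines 25 were lower in the WT pair and 28 in the KO pair. The block at the 3′ end of the gene, 14:76967630-76967780 with 5 cytosines, was the lowest of the 7 genes in the WT pair among blocks of at least 5 cytosines, at 28.97% ± 13.5 in WT naive and 93.6% ± 8.79 in WT primed cells. In KO cells it was at 51.9% ± 12.4 in the naive and 80.5% ± 10.3 in the primed library. The 4 CpGs of the printed ESRRB sequence, inside the block 14:76837347-76837570, were at 25% to 70% in WT naive and 81.8% to 100% in WT primed cells, and at 52% to 81.5% in KO naive and 87.5% to 100% in KO primed cells. The naive levels lay below the primed levels without overlap in each genotype, as did 30.6% of all runs of 4 adjacent cytosines in the WT pair and 37.8% in the KO pair. The lowest adjusted p of the gene was at 14:76960946, with 6 of 20 reads methylated in WT naive and 18 of 18 in WT primed cells (0.000198, Fisher's exact test), and 6 of 13 in KO naive and 24 of 24 in KO primed cells (0.00269).

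Counted over blocks, the rule of size was passed by 11 of the 16 member blocks of at least 5 cytosines as lower in WT naive than in WT primed cells (background 36.9%). It was passed by 7 of 16 as lower in KO naive than in KO primed cells (background 36.4%). No block was higher in either pair (backgrounds 0.526% and 0.157%). The median block difference of the 7 genes was -33.5 points in the WT pair and -24.1 in the KO pair, against -20.7 and -20.5 points over all blocks. The 7 genes have 16 blocks from a capture design and many lie close together, so these shares describe them and were not tested.

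**Figure D3:**
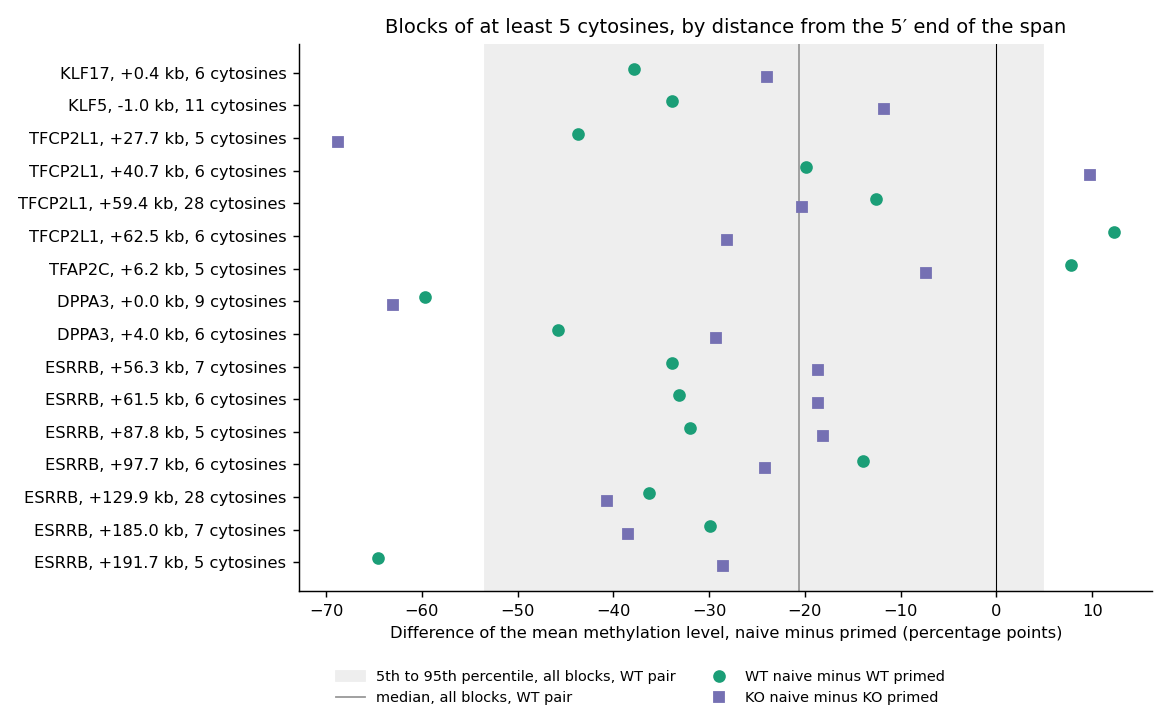
Naive minus primed difference of the mean methylation level (percentage points) for the 16 member blocks of at least 5 cytosines, named by gene, distance from the 5′ end of the span and number of cytosines, with circles for the WT and squares for the KO pair. The grey band runs from -53.4 to 4.89 points, the 5th to 95th percentile of all blocks in the WT pair, and the DPPA3 start block lies left of it in both pairs.

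The knockout was compared with WT within each state. In the primed state the 7 genes averaged 82.2% in KO primed and 80.8% in WT primed cells, a difference of 1.43 points (read-pooled 0.686, interval -1.42 to 2.80), against 0.973 points over the whole data. No member was called lower (background 0.103%) or higher (background 0.216%) by Fisher's exact test. At an unadjusted p under 0.05 there were 7 in each direction, against 29503 lower and 42214 higher of 907719 over the whole data. No block passed the rule of size as lower (background 0.754%) or higher (background 1.46%). The blocks furthest from 0 were the KLF17 start block, at 75.8% in KO primed and 95% in WT primed cells, the TFCP2L1 block at 2:122002278, at 77.1% and 93.9% in that order, and the 3′ block of ESRRB, at 80.5% and 93.6%.

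In the naive state the 7 genes averaged 55.1% in KO naive and 54.5% in WT naive cells, a difference of 0.595 points (read-pooled -0.544, interval -2.80 to 1.72), with a sign that depended on the weighting. No member was called lower (background 0.218%) or higher (background 0.391%). At an unadjusted p under 0.05, 10 were lower and 9 higher, against 43326 and 61282 of 907719 over the whole data. One block passed the rule of size as lower (background 2.17%), the TFCP2L1 block at 2:121980399, where all 6 cytosines were lower, at 49.3% in KO naive and 82.4% in WT naive cells. None passed as higher (background 3.25%), although the 3′ block of ESRRB was at 51.9% in KO naive and 28.97% in WT naive cells and the KLF5 block before the start at 41.7% and 23.3% in that order. At DPPA3 the 17 cytosines were at 42.1% in KO naive and 37.1% in WT naive cells, with a read-pooled interval of the difference from -2.32 to 11.4 points.

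Cytosines that a library did not list showed a second kind of difference, at ESRRB and TFAP2C. In the body of ESRRB, 86 cytosines at 14:76842601-76844120, between 66.6 and 68.1 kb after the 5′ end, were listed in some library. Of these, 71 were listed in WT naive and 4 in WT primed cells, and 65 in KO naive and 18 in KO primed cells. The listed cytosines were little methylated, at means of 22.8%, 19.5%, 11.6% and 9.35%, and had medians of 18, 16, 27 and 19 reads, in the same order. Whether the unlisted sites were not covered or not methylated cannot be told apart. Over all 30189 clusters of at least 20 listed cytosines, 3.67% had at least 50% of their cytosines listed in both naive and at most 25% in both primed libraries, and 1 of the 9 member clusters did. The reverse pattern was held by 0.523% of all clusters and by 0 of the 9.

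Upstream of TFAP2C, at 20:55200062-55201350, 46 of 51 cytosines were listed in WT naive and 11 in WT primed cells, and 24 in KO naive and 9 in KO primed cells. Their means were 19.3%, 11.1%, 3.78% and 3.49%, in the same order, so the listed sites of the KO cells had little methylation in either state. Because these sites are missing from some libraries, 1 of the 86 ESRRB sites and 3 of the 51 TFAP2C sites entered the averages above.

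**Figure D4:**
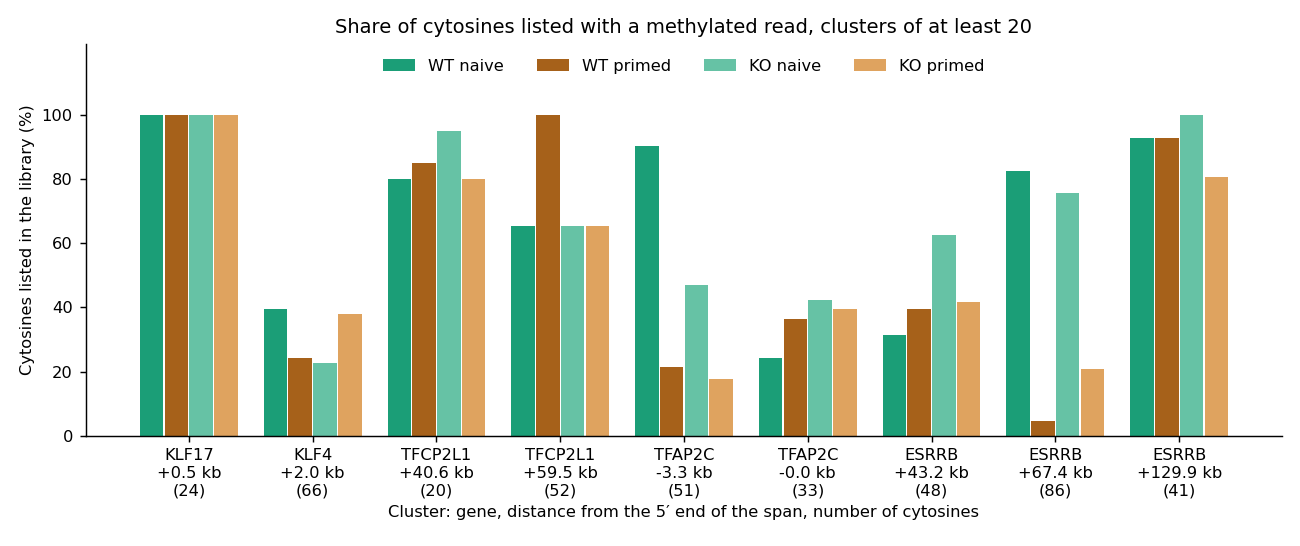
Share (%) of the cytosines of each member cluster (at least 20 cytosines listed in any library, number in brackets) that each library listed with a methylated read, by gene and distance from the 5′ end of the span. At the ESRRB cluster 67.4 kb after the 5′ end the naive libraries list 82.6% (WT) and 75.6% (KO) of 86 cytosines, against 4.65% and 20.9% in the primed libraries of the same genotypes.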

How the data were processed

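Genomic DNA of 4 H9 samples was captured and bisulfite sequenced, with 99% conversion stated for every library per the labels' protocols. Per the submitters' processing notes, reads were placed on hg19 (GRCh37). For the aligner, the caller and duplicate removal the sources used here give nothing. In each table the authors deposited, per the file headers, methylated and total read counts per cytosine and strand, and the methylation level as a fraction. No row had 0 methylated reads, so unlisted cytosines were left out and levels near 0 are raised by this selection.

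Groups came from the labels. Levels in percent were recomputed from the counts and averaged with equal weight per cytosine over those with at least 5 reads in all 4 libraries, with strands kept apart and chromosome Y left out. Fisher's exact tests were adjusted by Benjamini-Hochberg over all 907719 cytosines. Fisher tests on 2 libraries compare those libraries, not the conditions. Blocks joined cytosines with gaps of at most 500 bp, and the rule of size has no p-value. Intervals were Newcombe's for differences of pooled reads. Fisher's test and the rule of size were tested on simulated data, with reads drawn independently at each cytosine for the WT pair. Such data lack the excess variance seen between strands, so they do not check the calls against it.

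The gene spans are kb-rounded hg19 spans; the 5′ ends follow the strands of the RefSeq promoter table, and for TFAP2C the plus strand. The span of KLF17 is 17 kb, while the RefSeq gene is 91.2 kb long, so part of that gene was not read. The members, gene spans and tests were chosen with earlier results of these data known. Named were all 7 genes, the block nearest each start, the block of each gene with the largest naive-minus-primed difference, the 3 blocks with the largest genotype difference in each state, and up to 3 cytosines per gene with the lowest adjusted p, with other blocks added for description. Alternatives covered coverage, weighting, strands, windows, drawn or scaled reads, filling in of unlisted cytosines and block settings. Python 3.11.15 with numpy 2.4.6, pandas 2.3.3, scipy 1.17.1 and numba 0.67.0 was used.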

Additional observations from a re-analysis of the deposited data

Results flagged for a closer look

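Among the gene means and the blocks of at least 5 cytosines, 4 results had opposite signs in the WT and KO pairs. Some smaller groups did so too, such as the KLF4 cytosines before the start, and are not listed here. None of these differences between the pairs was tested, since each pair has 1 library per state. The mean of the 11 TFAP2C cytosines differed by 5.92 points (naive minus primed) in WT cells and by -9.09 points in KO cells. The TFAP2C body block at 20:55210110 differed by 7.82 points in WT cells and by -7.32 points in KO cells, both within the SD over its 5 cytosines. The TFCP2L1 block at 2:121980399 differed by 12.2 points in WT cells and by -28.1 points in KO cells. The TFCP2L1 block at 2:122002278 differed by -19.9 points in WT cells and by 9.80 points in KO cells.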

How the results depend on the processing

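No pairing of replicates was possible because each group held 1 library. The 2 pairs given above differ in genotype and in naive medium, so the SD over them is not a spread over replicates. The exact permutation test over them can give no p below 0.5. Each cytosine counts once, so limits of coverage change which genes are read. WT naive minus WT primed over the 7 genes was -26.2 points; it was -20.2 at 10 reads or more, -4.25 at 20 reads or more (19 cytosines), -19.2 with unlisted cytosines filled in at 0, and -41.1 within 1 kb of the starts. KO naive minus KO primed, -27.1 points, was -24.5, -14.3, -20.9 and -33.7 under the same settings, -24.1 with the minimum of reads in the 2 libraries compared, and -30.5 with the genes weighted equally, which was chosen after seeing the data. Each of these stayed below 0.

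The signs of the genotype differences did not hold. KO minus WT in the naive state, 0.595 points, was -1.58 at 10 reads or more, -7.44 at 20 reads or more, -0.914 filled in, -0.976 with 5 reads drawn, -2.33 with the minimum in the 2 libraries compared, -0.544 weighted by reads, -0.242 in the spans alone and 2.92 within 1 kb of the starts. KO minus WT in the primed state, 1.43 points, was -4.53 within 1 kb of the starts. Within 1 kb of its start ESRRB, with 1 cytosine, was higher in the naive state by 14.3 points in WT and 26.7 in KO cells. The cause of these changes was not tested. Other gene means kept the sign of naive minus primed under every alternative run, but not their size: beside the values of KLF4, TFCP2L1 and KLF17 given above, ESRRB was -15.8 and KLF5 -19.1 points in WT cells at 20 reads or more (2 cytosines each), KLF4 was -30.8 in KO cells with the minimum in the 2 libraries compared, and KLF5 was -59.7 in KO cells in the span alone (4 cytosines). With 5 reads drawn, Fisher's exact test can give no p below 0.00794 and called 0 of 907719 cytosines, so its counts of 0 say nothing of the members.

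Of cytosines, the 33 of 205 called lower in the WT pair were 17 of 93 at 10 reads or more and 0 of 19 at 20 reads or more. They were 7 within 1 kb of the starts, and 0 with 5 reads drawn or reads scaled by the strand ratio. The 47 of 205 of the KO pair were 34 of 93 at 10 reads or more and 4 of 19 at 20 reads or more. They were 11 within 1 kb of the starts, 29 at a difference of 50 points, and 0 with 5 reads drawn or scaled reads. The 1 called higher in the WT pair was 6 of 256 filled in and 3 with the minimum in the 2 libraries compared. It was 0 at 20 reads or more, within 1 kb of the starts, with 5 reads drawn and with scaled reads. In the KO pair 2 were called higher when filled in. In KO against WT, 1 was called lower in the primed state and 3 in the naive state when filled in, and 5 in the naive state with the minimum in the 2 libraries compared. The settings change how many cytosines are counted. Apart from drawn and scaled reads, the shares over all cytosines under them are not given here.

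Of blocks, the 11 of 16 lower in the WT pair were 3 of 5 at 10 reads or more and 0 of 1 at 20 reads or more. They were 3 within 1 kb of the starts, 2 at a difference of 50 points and 2 at 10 cytosines or more per block. The 7 of 16 of the KO pair were 2 of 5, 0 of 1, 1, 2 and 1 under the same settings. The 1 block lower in KO naive than in WT naive cells was 0 under each of these settings and with strands merged, and 2 with 5 reads drawn. Limits of coverage leave fewer blocks to count, and the shares over all blocks under these settings are not given here.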

Other observations

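Read in each library on its own, without asking for reads in the other libraries, the 7 genes held more weakly methylated cytosines than the set compared above. Levels then averaged 44.3% over 474 cytosines in WT naive, 68.4% over 356 in WT primed, 42.7% over 557 in KO naive and 65.6% over 375 in KO primed cells. At KLF4 these means were 19.99%, 32.1%, 19.8% and 32.4%, in the same order, and at TFAP2C 25.1%, 21.7%, 21.6% and 33.5%.

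Among cytosines of the 7 genes with at least 5 reads in both naive libraries, 85 of 393 (21.6%, Wilson 95% interval 17.8 to 25.96%) were unlisted in WT primed cells and 76 (19.3%, 15.7 to 23.5%) in KO primed cells. Over the whole data these shares were 7.96% and 6.54%. ESRRB held 66 of the 85 and 58 of the 76. Among those with at least 5 reads in both primed libraries, 22 of 242 (9.09%) were unlisted in WT naive and 19 (7.85%) in KO naive cells, against 10.1% and 3.92% over the whole data.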
